A study of Mus musculus with 20 samples.

Results

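The 10 genes described here, products of the Paneth cell secretory granule, were read in 20 RNA-seq libraries of sorted mouse intestinal lymphocytes: 8 alpha-defensins (Defa20, Defa21, Defa22, Defa24, Defa30, Defa33, Defa38 and Defa39), the lysozyme gene Lyz1 and the lectin gene Itln1. They are 10 of the 25933 gene symbols that the deposited tables hold together. They were chosen by their measured FPKM after deletion of Bcl6, where several of them differed, so their values in that comparison are a description and carry no test. The table of the Tcf7 experiment lists all 10 genes, and the other tables list 9, without Defa33.

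The cells were TCRαβ+ CD8αα+ intraepithelial lymphocytes (IELs), T cells that live between the epithelial cells of the small intestine, from mice at steady state. In the RFP experiment all mice had the genotype Bcl6-RFP/RFP, a reporter in which red fluorescent protein marks Bcl6 expression, and IELs were sorted as RFP+CD160+ (3 libraries) or RFP-CD160- (3 libraries). In the other experiments the whole CD8αα+ population was taken from Bcl6fl/fl Cd8cre, Prdm1fl/fl Cd8cre or Tcf7fl/fl Cd8cre mice (KO, 2 libraries each) and from Bcl6fl/fl, Prdm1fl/fl or Tcf7fl/fl littermates (WT, 2 libraries each). Every KO carried Cd8cre and no WT did, so an effect of the Cre transgene and the loss of the gene cannot be told apart. LI_1 and LI_2 are libraries of the genotype Bcl6-RFP/RFP whose titles begin with LI while their source label reads small intestine; the labels put them in no group. Ages are not given, nor whether the libraries of a group came from separate animals, so p-values measure only the spread between these libraries, which may be technical.

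Paneth cells sit at the base of small intestinal crypts and release granules of antimicrobial proteins into the gut lumen. Mouse alpha-defensins, also called cryptdins, are short cysteine-rich peptides that damage bacterial membranes after the protease matrilysin (Mmp7) has cut them from their precursors; lysozyme cleaves the bacterial cell wall, and intelectin-1, the product of Itln1, binds sugars on microbial surfaces. T lymphocytes are not known as a source of these proteins. The values are therefore read as Paneth cell RNA carried over into the sorted IEL libraries, a reading that was not tested, and in bulk samples fewer Paneth cells and less RNA per Paneth cell cannot be told apart.

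The 8 alpha-defensin genes lie within 709.9 kb of chromosome 8 on GRCm38, from the start of Defa21 at 21025545 to the end of Defa24 at 21735471, and each has 2 exons. Defa38 and Defa39 lie on the minus strand and the other 6 on the plus strand. Lyz1 has 4 exons on chromosome 10 (117287797 to 117292868) and Itln1 has 8 exons on chromosome 1 (171518122 to 171535294), both on the minus strand. GENCODE vM21 holds Defa38 as Gm14851 and Defa39 as AY761184. Because the genes are near copies of each other, the end of each coding sequence (the last 117 bases with the stop codon, from GENCODE vM21 transcripts) is shown to make plain which rows can be told apart by a read; capitals mark the bases that differ between the 2 genes of a pair.
Defa20: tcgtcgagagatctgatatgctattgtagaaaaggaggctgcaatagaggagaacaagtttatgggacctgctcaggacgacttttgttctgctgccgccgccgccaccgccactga
Defa21: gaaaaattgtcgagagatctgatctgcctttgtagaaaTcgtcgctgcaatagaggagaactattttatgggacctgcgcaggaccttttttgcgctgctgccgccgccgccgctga
Defa22: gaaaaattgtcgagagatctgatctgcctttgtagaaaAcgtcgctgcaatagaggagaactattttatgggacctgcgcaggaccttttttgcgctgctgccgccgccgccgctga
Defa24: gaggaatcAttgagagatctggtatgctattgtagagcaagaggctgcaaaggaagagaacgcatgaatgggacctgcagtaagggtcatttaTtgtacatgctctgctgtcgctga
Defa30: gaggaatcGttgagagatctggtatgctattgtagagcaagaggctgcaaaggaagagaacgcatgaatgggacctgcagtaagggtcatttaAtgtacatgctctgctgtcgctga
Defa38: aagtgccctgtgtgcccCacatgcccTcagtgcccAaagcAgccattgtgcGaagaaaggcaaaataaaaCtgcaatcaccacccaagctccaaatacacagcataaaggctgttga
Defa39: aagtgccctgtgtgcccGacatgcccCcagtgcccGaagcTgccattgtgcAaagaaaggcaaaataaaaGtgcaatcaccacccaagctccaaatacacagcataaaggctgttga

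Over this stretch Defa33 has the same letters as Defa20. Over the whole coding sequence Defa20 and Defa33 differed at 1 of 288 aligned bases, Defa21 and Defa22 at 2 of 282, Defa24 and Defa30 at 4 of 282, and Defa38 and Defa39 at 11 of 351. Identity was 88.9 to 89.9% between the Defa20/Defa33 and the Defa21/Defa22 pairs, 78.7 to 82.3% between these 4 genes and Defa24 or Defa30, and 60.1 to 62.4% between these 4 genes and Defa38 or Defa39. Of all 50-base windows of each gene's exons, none was unique among GENCODE transcripts in Defa20 (376 windows) or Defa33 (377 windows), and 27.1% were in Defa21 and 25.1% in Defa22. The share was 71.9% in Defa24, 47.6% in Defa30, 44.4% in Defa38 and 66.5% in Defa39, against 83.9% in Lyz1 and 99% in Itln1. With 100-base windows the share was 0.307% in Defa20, 0% in Defa33, 59.6% in Defa21 and 59.7% in Defa22. It was 100% in Defa24 and Defa39, 99.7% in Defa30 and 82.1% in Defa38. The rows of Defa20, Defa21, Defa22 and Defa33 are therefore uncertain as values of single genes, and for Defa21 and Defa22 the extent depends on the read length. How reads with several matching positions were counted, and the read length, are not given in the sources used here.

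RefSeq (GRCm38.p6) promoter entries matched 7 of the 10 genes (Defa20, Defa21, Defa22, Defa30, Defa38, Lyz1 and Itln1). Over the 250 bases before the start, Defa21 and Defa22 had identical letters and Defa20 was 98% identical to both, while Defa30 and Defa38 were 60.4% and 57.3% identical to Defa20. The 160-base stretches of Defa22 (chromosome 8, plus strand, 21162117 to 21162276) and Defa30 (chromosome 8, plus strand, 21134490 to 21134649) are shown as examples. The stretch of Lyz1 (chromosome 10, minus strand, 117292869 to 117293028) is shown beside them. Capitals mark ATCAAAG, the letters that TCF/LEF factors such as the Tcf7 product TCF1 bind, searched on both strands.
Defa22: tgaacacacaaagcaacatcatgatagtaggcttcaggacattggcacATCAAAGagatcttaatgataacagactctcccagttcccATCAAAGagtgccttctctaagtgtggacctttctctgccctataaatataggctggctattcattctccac
Defa30: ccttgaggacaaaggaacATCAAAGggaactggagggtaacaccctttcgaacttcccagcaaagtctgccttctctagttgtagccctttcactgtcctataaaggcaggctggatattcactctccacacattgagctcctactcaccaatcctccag
Lyz1: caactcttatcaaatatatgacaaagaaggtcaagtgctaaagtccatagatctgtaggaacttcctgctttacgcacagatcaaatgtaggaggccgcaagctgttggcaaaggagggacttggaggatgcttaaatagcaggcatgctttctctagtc

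The motif lay 112 and 72 bases before the start in Defa20, Defa21 and Defa22 and 142 bases before it in Defa30, and it was not among the letters searched in Defa38, Lyz1 or Itln1. Of 32851 mouse promoters of the same length, 3.21% held ATCAAAG on either strand. These matches describe letters only and were not set against any binding data. Defa38, Lyz1 and Itln1 rose in the Tcf7 KO as well (log2 differences 0.72, 0.86 and 0.84). Tcf7 was deleted with Cd8cre and the sorted cells were lymphocytes, while the members are read as Paneth cell RNA. A link between the motif and the members' change was not tested.

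In the 6 libraries of the RFP experiment the Paneth cell genes varied widely within each sort, and 1 library, RFP-CD160- replicate 2, stood apart. The deposited values of this experiment are FPKM (reads per kilobase of exon and per 1000000 reads). Defa24, the most abundant member per length, stood at 32.8, 12.8 and 8.48 FPKM in RFP+CD160+ replicates 1 to 3 and at 19.5, 141 and 26.2 FPKM in RFP-CD160- replicates 1 to 3. RFP-CD160- replicate 2 was the highest library, and the other 5 libraries of both sorts overlapped. Lyz1 stood at 10.8, 5.07 and 4.55 FPKM in RFP+CD160+ libraries and at 5.42, 48.4 and 12.2 FPKM in RFP-CD160- libraries. Itln1 stood at 5.62, 2.35 and 1.92 FPKM against 4.19, 22.1 and 5.85 FPKM. Both genes had the same highest library as Defa24, and RFP+CD160+ replicate 1 exceeded RFP-CD160- replicate 1 for both.

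The remaining alpha-defensins had the same highest library. Defa30 stood at 13.3, 4.84 and 2.08 FPKM in RFP+CD160+ and 8.82, 60.4 and 15.8 FPKM in RFP-CD160- libraries, Defa38 at 20.0, 2.35 and 4.89 against 6.04, 67.5 and 15.4 FPKM, and Defa39 at 5.31, 1.50 and 1.18 against 1.56, 26.8 and 5.38 FPKM. Defa20 ran from 1.78 to 3.30 FPKM in RFP+CD160+ and from 2.56 to 11.4 FPKM in RFP-CD160- libraries, and Defa22 from 1.48 to 8.29 and from 5.91 to 19.9 FPKM. For these 5 genes the sorts overlapped. Defa21 was the exception, at 4.95, 0.823 and 1.56 FPKM in RFP+CD160+ and 5.21, 18.8 and 6.34 FPKM in RFP-CD160- libraries, with no overlap although RFP+CD160+ replicate 1 and RFP-CD160- replicate 1 lay close together.

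**Figure D1:**
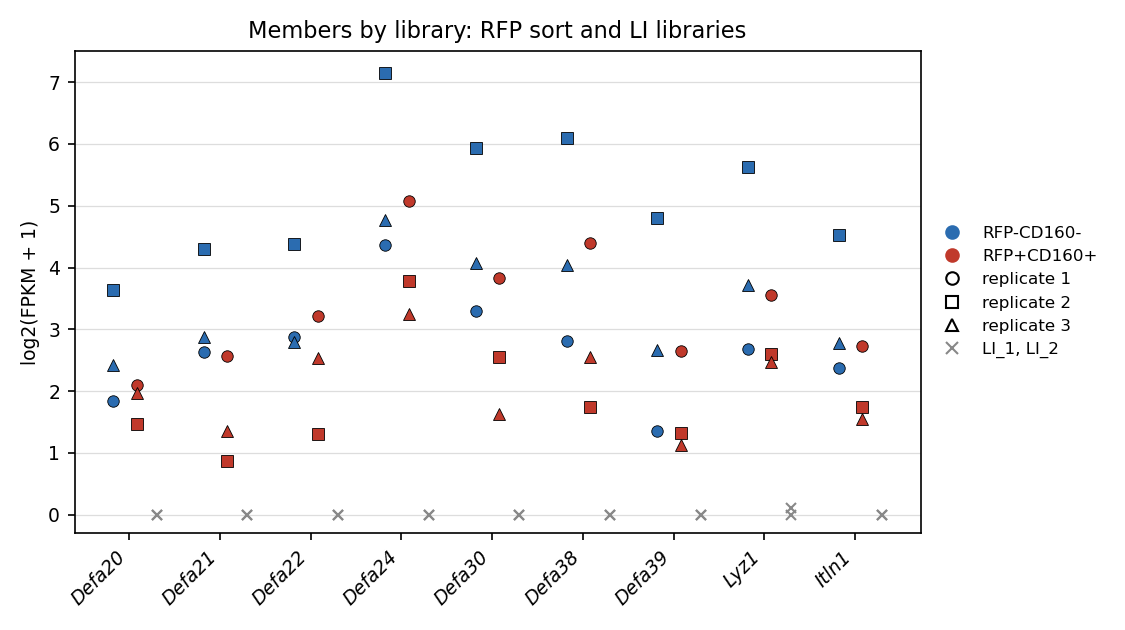
Each point is a library, with the level of a member on the vertical axis as log2(FPKM + 1); blue points are RFP-CD160- and red points RFP+CD160+ libraries, shapes give the replicate and grey crosses are LI_1 and LI_2. RFP-CD160- replicate 2 (blue square) is the highest library for each of the 9 members listed, and the LI libraries lie at or near 0.

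Summed over the 9 listed members, the level was 104, 33.0 and 32.4 FPKM in RFP+CD160+ and 59.7, 417 and 97.4 FPKM in RFP-CD160- libraries. The highest library exceeded the lowest 3.22-fold within RFP+CD160+ and 6.98-fold within RFP-CD160-, while the group means, 56.6 ± 41.4 and 191 ± 196 FPKM (SD, n = 3 each), differed 3.38-fold. Without RFP-CD160- replicate 2 the log2 ratio of the sums went from -1.76 to -0.47. On the log2(FPKM + 1) scale, limma placed 1 of the 9 members below the adjusted p threshold of 0.05, Defa21, with RFP+CD160+ lower by 1.67 (SE 0.52, adjusted p = 0.0351); 21.6% of all 9717 genes tested were called lower, so a count of 1 in 9 is not a result about these genes. Groups did not overlap for this 1 gene, with RFP+CD160+ lower, against 28.5% of all genes. The other 8 members had log2 differences of -1.77 to -0.78 with adjusted p-values of 0.0867 to 0.247. The Defa21 call was lost without RFP-CD160- replicate 2 (limma adjusted p = 0.0837), without RFP+CD160+ replicate 2 (0.11) or replicate 3 (0.0898) and with no filter on low values (0.0613), and leaving out RFP-CD160- replicate 1 gave 6 members called lower. 

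Genes of other epithelial cells had the same highest library. The 19 listed genes of absorptive enterocytes summed to 6.65 to 16.0 FPKM in RFP+CD160+ libraries and to 7.26 and 13.1 FPKM in RFP-CD160- replicates 1 and 3, but to 43.8 FPKM in replicate 2. The 9 listed goblet cell genes, of the mucus-secreting lineage, summed to 33.6 FPKM in that library and to 2.71 to 16.6 FPKM in the other 5. No gene of either list passed the limma test, of 6 enterocyte and 3 goblet cell genes tested. The part of epithelial RNA in the members' spread was not tested.

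The LI libraries held almost none of these transcripts. LI_1 had 3 reads of Lyz1 (0.0791 FPKM) in a library of 30.03 (in units of 1000000 reads) and 0 reads of the other 8 members listed, and LI_2 had 0 reads of all 9 in a library of 22.5 in the same unit. The members' total was 0.0999 per 1000000 reads in LI_1, and the total of 0 in LI_2 allows up to 3 reads, or 0.133 per 1000000, a limit that covers counting error only. The 6 sorted libraries held 18.5 to 228 member reads per 1000000. Enterocyte genes summed to 1.77 and 1.73 FPKM in LI_1 and LI_2, and goblet cell genes to 7.02 and 6.21 FPKM. Other Paneth cell genes summed to 3.61 and 6.43 FPKM in LI_1 and LI_2, and to 3.64 to 26.8 FPKM in the 6 sorted libraries. Of these genes, Mptx1 had 44 and 78 reads in LI_1 and LI_2 and 0 in the sorted libraries. As the labels give these libraries no group, no test was made with them, and their values beside the sorted libraries are a description.

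In the Bcl6 experiment 6 members were lower and 3 were higher in both KO libraries than in both WT libraries. Defa24 stood at 124 and 115 FPKM in WT replicates 1 and 2 and at 28.6 and 33.4 FPKM in KO replicates 1 and 2. Lyz1 stood at 44.9 and 51.7 against 10.4 and 6.80 FPKM, and Itln1 at 29.1 and 41.3 against 10.7 and 7.41 FPKM. Each of these genes was 3.85 to 5.61 times as high in the WT mean as in the KO mean. Defa30 (39.65 and 39.52 against 7.58 and 7.53 FPKM), Defa38 (42.7 and 43.4 against 9.35 and 6.15 FPKM) and Defa39 (31.1 and 35.8 against 4.14 and 3.42 FPKM) were also lower in the KO, by the widest ratio, 8.85-fold, for Defa39.

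Defa20, Defa21 and Defa22, the copies with few or no unique 50-base windows, lay the other way at low levels. Defa20 had 1 and 0 reads in WT and 22 and 7 reads in KO libraries. Defa21 had 7 and 4 against 26 and 12 reads (0.73 and 0.433 against 2.76 and 1.26 FPKM). Defa22 had 2 and 6 against 28 and 21 reads (0.208 and 0.647 against 2.96 and 2.21 FPKM). In the KO libraries these 3 genes were at 0.73 to 2.96 FPKM, while in the WT libraries none exceeded 0.73 FPKM although Defa24 reached 124 FPKM. In the fit across 9573 genes, 6 members passed the threshold as lower, where 0.387% of all genes did, and none passed as higher, where 0.0313% did; Defa20 failed the filter on low values. Groups did not overlap for 6 members lower and 3 higher, against 14% and 19% of all genes. Nothing is read from these counts, since this comparison chose the members.

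The summed level was 312 and 328 FPKM in WT and 78.8 and 68.9 FPKM in KO libraries, a 4.33-fold ratio of means (320.05 ± 11.2 and 73.9 ± 6.95 FPKM, SD, n = 2 each). Replicates of a group differed at most 1.14-fold. Genes of other epithelial cells did not share the difference: the 20 enterocyte genes summed to 84.8 and 87.8 FPKM in WT and to 88.9 and 85.3 FPKM in KO libraries, and the 10 listed goblet cell genes to 56.2 and 68.1 FPKM against 94.8 and 72.2 FPKM. Neither list had a gene past the threshold, of 12 and 9 tested. The members were chosen by their difference in this comparison, so their contrast with these lists is a description and not a test. Among other Paneth cell genes, Clps, which encodes the pancreatic lipase cofactor colipase, was lower in the KO (4.77 and 9.10 against 0.799 and 0.0721 FPKM; log2 difference -2.46, SE 0.32, limma adjusted p = 0.0137) and was the single one of 6 tested to pass. Mmp7, the defensin-processing protease, stood at 2.89 and 1.74 FPKM in WT and 0.54 and 0.701 FPKM in KO libraries. Clps and Mmp7 were named after their values had been seen, so these values are a description. Ang4, an antimicrobial ribonuclease gene, stood at 5.15 and 4.46 against 1.94 and 2.42 FPKM and did not pass (limma adjusted p = 0.168). The antibacterial lectin genes Reg3b (6.01 and 4.55 against 9.28 and 6.25 FPKM) and Reg3g (3.35 and 3.21 against 4.45 and 4.75 FPKM) did not pass. Both genes belong to enterocytes as well as to Paneth cells.

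In the Prdm1 experiment a single KO library set the members' levels. Values there are reads divided by a size factor per library (scaled reads), with no correction for gene length. Lyz1 stood at 663 and 1488 scaled reads in WT replicates 1 and 2 and at 1355 and 6284 in KO replicates 1 and 2. Defa24 stood at 265 and 645 against 591 and 3553, and Itln1 at 172 and 487 against 470.4 and 2694. For all 3 genes KO replicate 2 was the highest library, and KO replicate 1 lay between the WT libraries.

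The other alpha-defensins had KO replicate 2 as the highest library too, at 959 to 1496 scaled reads. Defa30 stood at 75.5 and 222 in WT and 196 and 1496 in KO libraries, and Defa21 at 142 and 191 against 159 and 1107, with KO replicate 1 inside the WT range in both. Defa20 (125 and 183 against 203 and 1230), Defa22 (143 and 196 against 215 and 959), Defa38 (121 and 238 against 266 and 1465) and Defa39 (74.5 and 185 against 209 and 1031) did not overlap, and KO replicate 1 exceeded the higher WT library by a narrow margin. Thus 4 of 9 members did not overlap, with KO higher, where 21.8% of all genes did not.

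No member passed the limma test, where 4.29% of 10969 genes were called higher. Log2 differences were 1.35 to 2.06 with adjusted p-values of 0.196 to 0.389, 3 members had an unadjusted p under 0.05, and edgeR on the recovered reads also called 0 of 9 (4.19% of 12476 genes called higher). The summed level was 1780 and 3834 in WT and 3665 and 19818 scaled reads in KO libraries, 2.15-fold apart within WT and 5.41-fold within KO. Without KO replicate 2 the log2 ratio of the summed level went from 2.06 to 0.38 and that of Defa21 to -0.05; without KO replicate 1 it was 2.82 for the sum and all 9 members passed, and without WT replicate 2 it was 2.72 and 6 passed.

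Enterocyte genes were high in both Prdm1 KO libraries and not in replicate 2 alone. They summed to 2264 and 1787 scaled reads in WT and 6196 and 6993 in KO libraries, and 11 of the 16 tested rose, among them Anpep, a brush border peptidase (250.1 ± 17.2 in WT and 968 ± 205 in KO; log2 difference 1.93, limma adjusted p = 0.00359) and Sis, sucrase-isomaltase (183 ± 26.7 and 780 ± 245; 2.06, adjusted p = 0.00712). Goblet cell genes summed to 1802 and 1054 in WT and 3985 and 5854 in KO libraries, with 4 of 8 tested higher. Other alpha-defensin genes, from Defa2 to Defa43, had 0 of 8 called, a median log2 difference of 1.95 and KO sums of 1294 and 7467, the same high library as the members. Genes of this list share exon windows with members, such as Defa17 with Defa30, so their rows are not separate observations. The part of epithelial RNA in the members' levels was not tested.

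**Figure D2:**
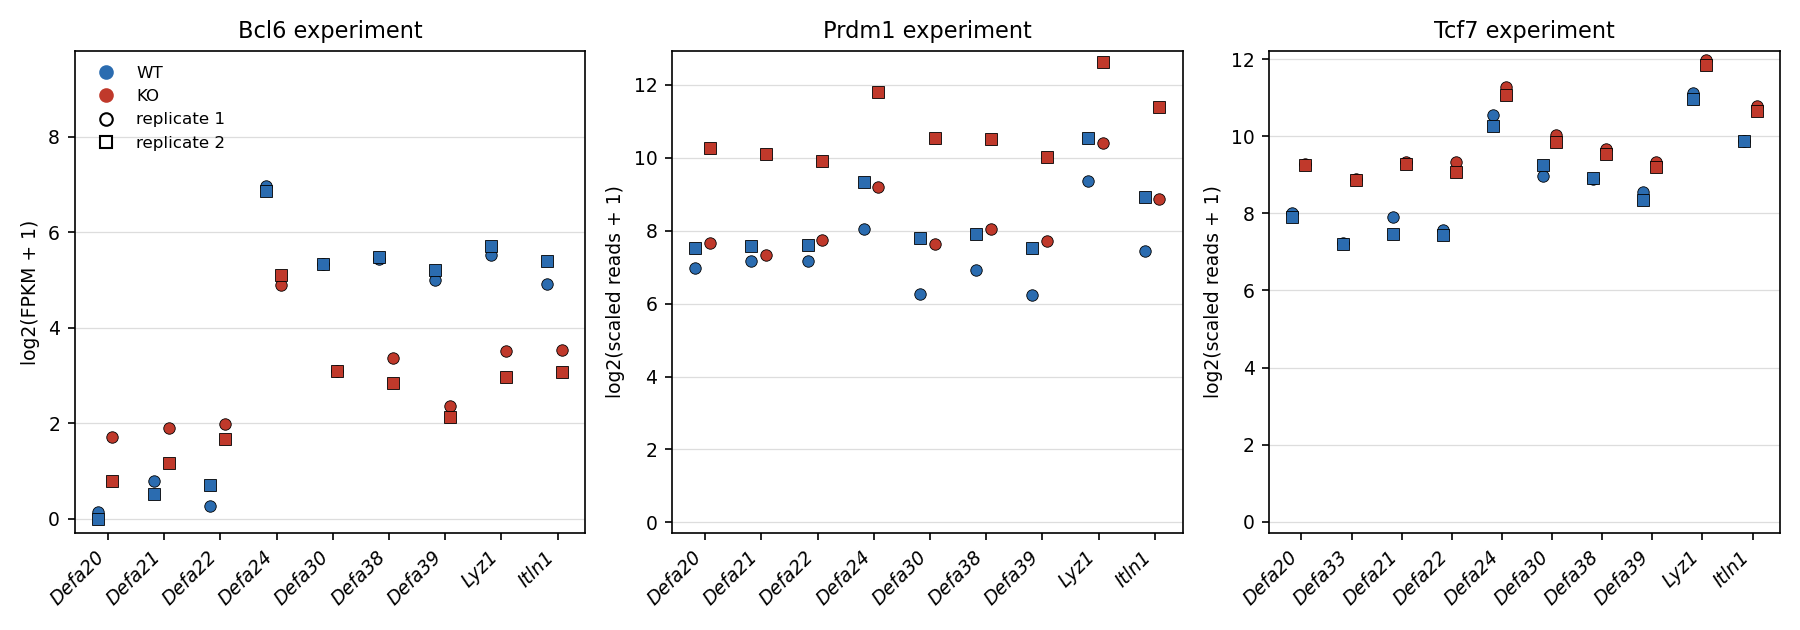
Each point is a library, blue for WT and red for KO, with circles for replicate 1 and squares for replicate 2; the vertical axis is log2(FPKM + 1) in the Bcl6 experiment and log2(scaled reads + 1) in the Prdm1 and Tcf7 experiments. The Bcl6 groups part in opposite directions for Defa20 to Defa22 and for the rest, Prdm1 KO replicate 2 stands above the other 3 libraries, and both Tcf7 KO libraries stand above both WT libraries for all 10 genes.

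All 10 members rose in the Tcf7 KO. Lyz1 stood at 2241 and 2011 scaled reads in WT replicates 1 and 2 and at 4037 and 3697 in KO replicates 1 and 2 (log2 difference 0.86, SE 0.07, limma adjusted p = 2.18e-05). Itln1 stood at 946 and 943 against 1779 and 1599 (0.84, SE 0.09, adjusted p = 9.5e-05). Defa24 stood at 1513 and 1222 against 2491 and 2148 (0.77, SE 0.10, adjusted p = 0.00069). For each of these 3 genes both KO libraries exceeded both WT libraries by more than the replicates of a group differed.

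Defa30 (504 and 607 against 1050 and 922), Defa38 (472 and 478 against 820 and 744) and Defa39 (377 and 322 against 649 and 592) rose by log2 differences of 0.83, 0.72 and 0.83. The 4 copies with few or no unique 50-base windows rose further. Defa20 stood at 257 and 238 scaled reads in WT and 620 and 607 in KO libraries (log2 difference 1.31, SE 0.14), and Defa33, its near-identical copy, at 149 and 146 against 474 and 466 (1.66, SE 0.17). Defa21 stood at 237 and 174 against 639 and 625 (1.63, SE 0.17), and Defa22 at 187 and 172 against 639 and 538 (1.70, SE 0.16). Their KO to WT ratios of means were 2.48 to 3.27, and those of the other 6 members 1.65 to 1.82; the difference between the 2 sets was not tested, as the sets were compared after the values had been seen.

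The 10 of 10 calls stand beside 1.49% of 15210 genes called higher, and the 10 members whose groups did not overlap stand beside 20.9% of all genes. Several members are near copies and all are read as Paneth cell RNA, so the 10 rows are not separate observations. Adjusted p-values ran from 2.18e-05 to 0.00399, the median log2 difference of the members was 0.85 against 0.00 for all genes tested, and edgeR on the recovered reads called the same number, 10, where it called 1.12% of all genes higher. The summed level was 6884 and 6315 scaled reads in WT and 13197 and 11936 in KO libraries, a 1.90-fold ratio of means, with replicates at most 1.11-fold apart. Leaving out any single library kept 10 calls and log2 ratios of the sum of 0.85 to 1.00.

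The remaining alpha-defensin genes moved with the members in the Tcf7 KO: 11 of 13 tested rose and none fell, with a median log2 difference of 0.99, for example Defa17 (488 ± 18.7 in WT and 825 ± 103 in KO, SD, n = 2; log2 difference 0.75, adjusted p = 0.0034). That list holds AY761184, the same locus as Defa39. Genes of the list share exon windows with members, such as Defa17 with Defa30 and Defa2 with Defa33, so their rows are not separate observations. Of 8 other Paneth cell genes tested, 1 rose and 2 fell. The 17 listed summed to 2574 and 2468 scaled reads in WT and to 2275 and 2204 in KO libraries. The median log2 difference of the 8 tested was 0.43. Ang4, an antimicrobial ribonuclease of Paneth cells, rose (133 and 163 against 286 and 271; log2 difference 0.91, limma adjusted p = 0.0263). Reg3b (1083 and 993 against 569 and 575; -0.86, adjusted p = 0.000343) and Reg3g (606 and 576 against 401 and 353; -0.65, adjusted p = 0.0171) fell.

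Genes of other epithelial cells were read in the Tcf7 libraries too, and their differences were not tested against those of the members. Of 16 enterocyte genes tested 2 rose, and the list summed to 6127 and 6396 scaled reads in WT and 7121 and 7235 in KO libraries. Of 9 goblet cell genes 4 rose, among them the mucin gene Muc2 (631 ± 45.2 in WT and 1197 ± 3.19 in KO; log2 difference 0.93, limma adjusted p = 0.000135), and that list summed to 3703 and 3967 against 6130 and 5698. None of the 15 general epithelial genes passed the limma test (median log2 difference 0.17). How far epithelial RNA in general enters the members' change was not tested.

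**Figure D3:**
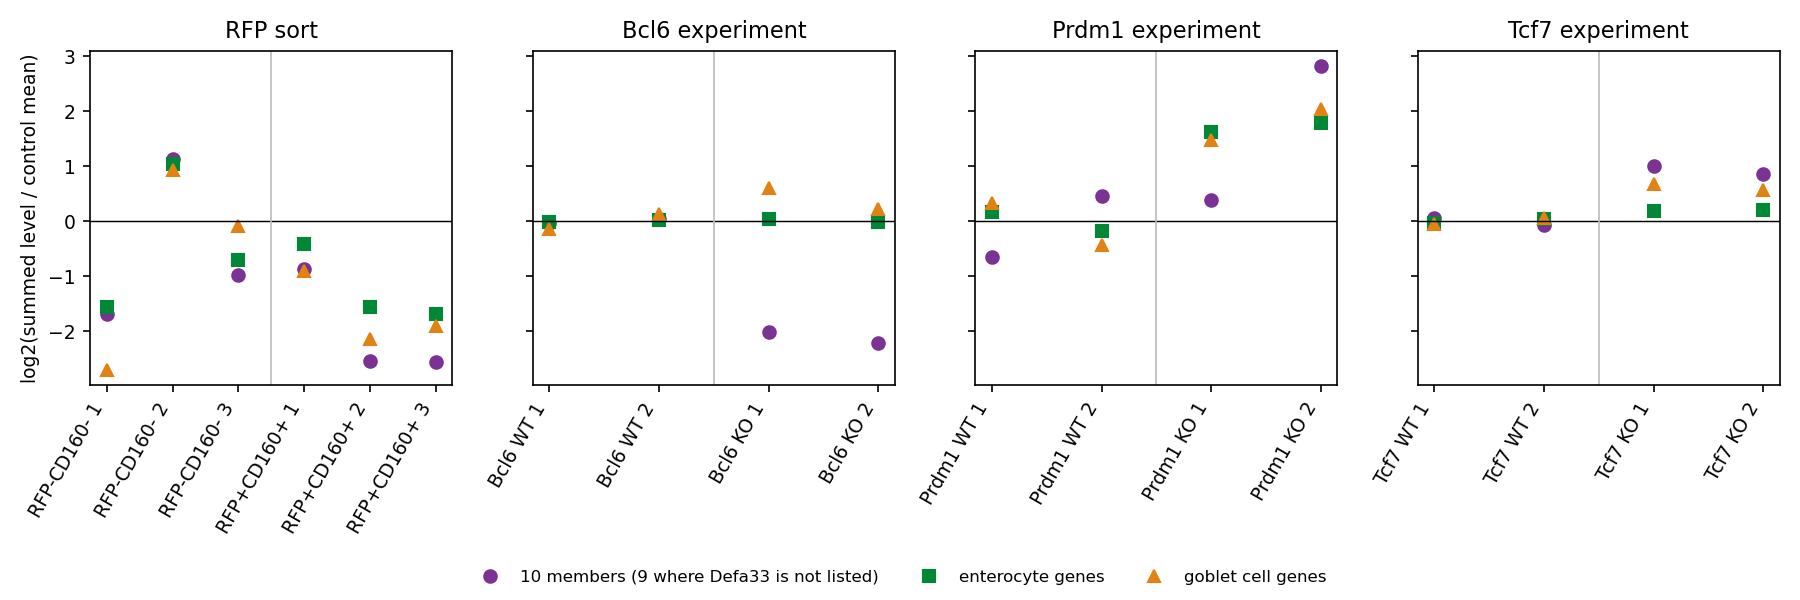
The vertical axis is the log2 ratio of each library's summed level to the mean of the control libraries (RFP-CD160- or WT, left of the grey line) of its experiment; purple circles are the members, green squares enterocyte genes and orange triangles goblet cell genes. In the Bcl6 experiment the members' sums part 4.33-fold between groups while enterocyte sums stay between 84.8 and 88.9 FPKM. That comparison chose the members, so this contrast is a description only. In the Prdm1 experiment enterocyte and goblet cell sums are high in both KO libraries while the members are high in replicate 2.

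The share of single copies among the alpha-defensin reads differed between libraries. Within the 7 alpha-defensins listed in every table, Defa20, Defa21 and Defa22 together took 0.441% (95% Wilson interval 0.240 to 0.809%) and 0.463% (0.252 to 0.850%) of the reads in Bcl6 WT libraries and 14.2% (11.5 to 17.4%) and 7.78% (5.77 to 10.4%) in Bcl6 KO libraries. In the Tcf7 experiment they took 19.2 and 18.2% in WT and 27.5 and 28.7% in KO libraries, where no interval reached above 20.5% in WT or below 26.4% in KO. The Tcf7 groups did not overlap in this share, and the Bcl6 values are a description only, since that comparison chose the members. The Prdm1 libraries gave 43.3 and 30.6% in WT and 31.4 and 30.4% in KO, and the sorted libraries ran from 14.9 to 36.9% with both sorts overlapping. The intervals cover counting error only, and these 3 genes were set apart after their values had been seen.

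**Figure D4:**
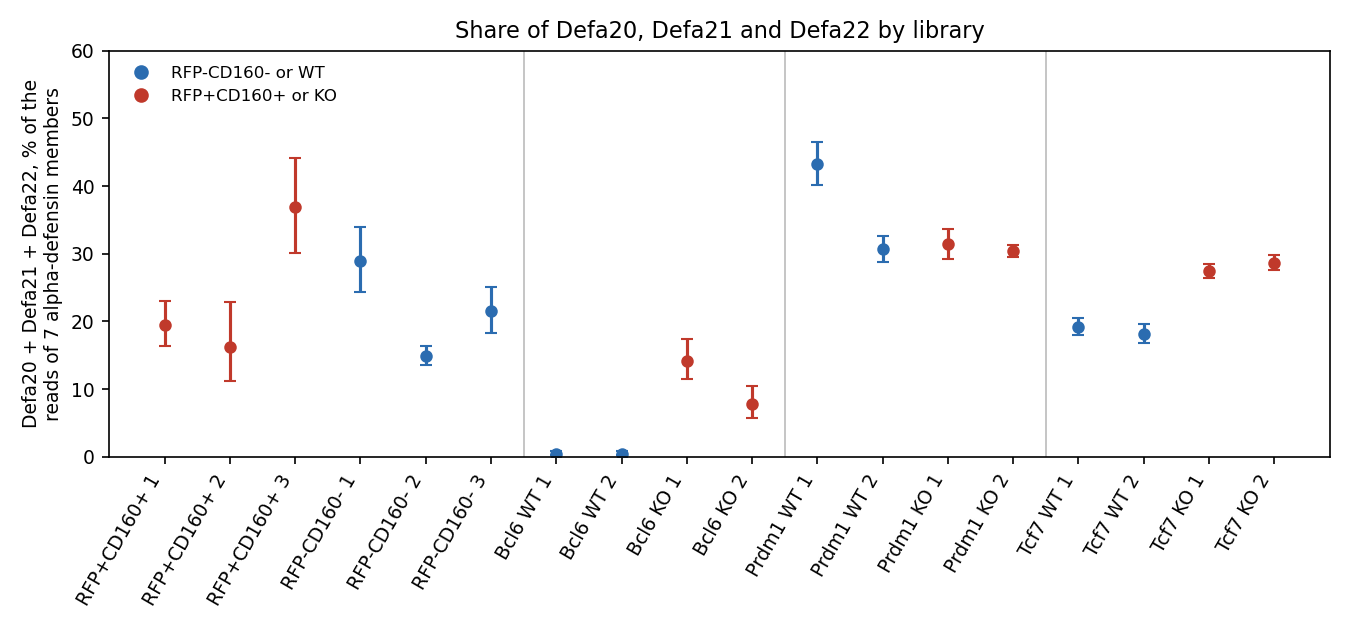
Points give, for each of the 18 grouped libraries, the reads of Defa20, Defa21 and Defa22 as a percentage of the reads of 7 alpha-defensins, with 95% Wilson intervals as bars; blue marks RFP-CD160- or WT and red RFP+CD160+ or KO. Both Bcl6 WT libraries lie under 1%, and every other library lies between 7.78 and 43.3%.

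Ratios between the reads of other pairs of members are given beside the share. In the Tcf7 libraries Itln1 had 0.422 to 0.469 reads per Lyz1 read, a 1.11-fold range over 4 libraries whose summed member level differed 2.09-fold, and Defa39 had 0.249 to 0.275 reads per Defa24 read. In the Bcl6 libraries Itln1 had 0.586 to 0.985 reads per Lyz1 read, and Defa22 had 0.00168 to 0.104 reads per Defa24 read, a 61.8-fold range. In the RFP experiment, where 5 to 1019 reads stood behind a member's value in a library, the Itln1 to Lyz1 ratio ran from 0.381 to 0.699 and the Defa22 to Defa24 ratio from 0.115 to 0.567.

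Per kilobase of exon, Defa24 was the most abundant member in every group. Levels were divided by the whole exon length, and Defa24 also had the largest share of unique 50-base windows among the alpha-defensins (71.9%). How reads with several matching positions were counted is not given, and its part in the order of the members was not tested. In Bcl6 WT libraries its level was 119 ± 5.91 FPKM (SD, n = 2), above Lyz1 (48.3 ± 4.80), Defa38 (43.1 ± 0.471), Defa30 (39.6 ± 0.0914), Itln1 (35.2 ± 8.58) and Defa39 (33.4 ± 3.29); the Itln1 libraries overlapped those of Defa30 and those of Defa39, while the libraries of Defa30 and Defa39 did not overlap. Defa21, Defa22 and Defa20 came last at 0.58, 0.427 and 0.0511 FPKM. In Tcf7 WT libraries, with scaled reads divided by exon length, Defa24 stood at 3264 ± 491 per kilobase and Lyz1 at 1683 ± 129, followed by Defa30 (1397 ± 183) and Defa38 (1353 ± 12.2), which did not differ beyond their spread. Itln1 (828 ± 1.86), Defa39 (695 ± 76.5), Defa20 (583 ± 30.7), Defa21 (492 ± 106), Defa22 (429 ± 25.7) and Defa33 (346 ± 6.08) followed, and Defa20, Defa21 and Defa22 lay within each other's spread in part.

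The genes most like the alpha-defensins across the 18 grouped libraries were mostly epithelial. Each of 8973 genes was centred on its experiment mean on the log2 scale and correlated with the average of the 7 alpha-defensins; libraries of an experiment share their table and its scaling, so the correlations are a description. The 10 highest genes outside the members were Spink4 (Pearson r = 0.93), Defa29 (0.90), Ang4 (0.86), Lypd8 (0.86), Oat (0.82), Lgals4 (0.82), Pigr (0.81), Lgals2 (0.81), Fabp2 (0.81) and Krt19 (0.81). Spink4 is a goblet cell gene, and Pigr, Lgals4, Fabp2 and Krt19 are epithelial. In the Bcl6 comparison these 10 genes had log2 differences of -0.87 (Ang4) to 0.44 (Lgals2), with Spink4 at 0.08. The members called lower there had -2.85 (Defa39) to -1.85 (Itln1), so the likeness does not extend to the size of that difference. Defa29 shares 50-base windows with Defa38 and Defa39, so its row is not separate from theirs. Lyz1 and Itln1, which did not enter the average, had r = 0.92 and 0.95. The Bcl6 comparison chose the members, Lyz1 and Itln1 included. Its libraries are among the 18, so these correlations are partly set by that choice. The median was 0.77 over 5 enterocyte genes, 0.78 over 9 general epithelial genes, 0.68 over 3 goblet cell genes and -0.05 over all genes.

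The sorted identity and the deleted genes were read once as a check of the labels. Cd3e was at 157 to 246 FPKM, Cd8a at 542 to 946 FPKM, Cd8b1 at 0.72 to 1.27 FPKM and Cd4 at most at 0.0881 FPKM in the RFP experiment, the pattern of CD8αα+ T cells. Cd4 was low but higher in the KO of each deletion. It stood at 0.0863 and 0.179 FPKM in Bcl6 WT and 1.76 and 1.08 FPKM in KO libraries. In scaled reads it stood at 6.21 and 8.63 against 48.7 and 66.5 in the Prdm1 and 22.8 and 11.0 against 55.7 and 50.2 in the Tcf7 experiment. The source of these reads was not tested. Prdm1 fell to 640 and 362 scaled reads in its KO from 6092 and 5117, and Tcf7 to 7757 and 7993 from 15430.3 and 15606. Bcl6 stood at 0.55 and 0.638 FPKM in its KO and at 0.772 and 0.735 FPKM in WT libraries, all under the filter, so it checks those labels only weakly. Bcl6 was at 13.7 to 18.0 FPKM in RFP+CD160+ and 3.30 to 3.59 FPKM in RFP-CD160- libraries. The sorted RFP libraries held 14.5 to 17.4 times 1000000 reads, the Bcl6 libraries 22.1 to 23.0, the Prdm1 libraries 30.1 to 38.4 and the Tcf7 libraries 40.98 to 48.2 in the same unit.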

How the data were processed

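Bulk RNA-seq values of 20 libraries were used. RNA was extracted from sorted cells, per the labels' protocols, and mm10, Bowtie2, RSEM, featureCounts, Subread, Trim Galore (version 0.4.4) and DESeq2 appear, without their roles, in the submitters' processing notes. The authors deposited FPKM for the RFP, LI and Bcl6 libraries. For the Prdm1 and Tcf7 libraries the authors deposited a signal that is also named FPKM but holds reads divided by a size factor per library. Each value was divided by the worth of 1 read, giving whole reads for 97.1 to 97.9% of the low FPKM values checked and 100% of the signal values (tolerance 0.02). FPKM was resolved with GENCODE vM21 exon lengths.

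Fits were made within an experiment, with limma 3.58.1 (trend) under R 4.3.3, on log2(value + 1) and two-sided, for genes that reached 1 FPKM or 50 scaled reads in a number of libraries equal to the smaller group; fold changes of low genes are understated on this scale. P-values were adjusted by Benjamini-Hochberg over all genes tested, with a threshold of 0.05. The alternatives were another pseudocount (0.1 FPKM or 10 scaled reads), no filter, quantile normalization, the replicate number as a block, each library left out, and edgeR 4.0.16 (quasi-likelihood, TMM) on recovered reads of the Prdm1 and Tcf7 tables. Sums over the members carry no test. The members and all gene lists were chosen with earlier results of these data known. The named genes are the 10 members, up to 4 genes of each other list with the highest mean level, and the 10 genes most like the alpha-defensins; Clps and Mmp7 were added after their values were seen. The fits were tested on simulated data. Python 3.11.15 and matplotlib 3.10.9 drew the figures.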

Additional observations from a re-analysis of the deposited data

How the results depend on the processing

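Pseudocount and quantile normalization left the number of members called as reported in each of the 4 comparisons, and the Tcf7 comparison kept 10 calls under every alternative, edgeR included. With no filter the RFP comparison called 0 members in place of 1. Leaving out 1 library in turn gave 0 to 6 members called in the RFP comparison, 6 to 9 in the Bcl6, 0 to 9 in the Prdm1 and 10 in the Tcf7 comparison, and 2706 to 3402, 39 to 1562, 569 to 1255 and 243 to 738 genes called in all. The log2 ratio of the summed level then ran from -2.55 to -0.47, from -2.21 to -2.02, from 0.38 to 2.82 and from 0.85 to 1.00. A single value changed sign, the log2 difference of Defa21 in the Prdm1 comparison, which ran from -0.0487 without KO replicate 2 to 2.74 without KO replicate 1; the cause was not tested. With 1 library left in an arm, it is assumed to vary like the other group.

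Same-numbered libraries share only a number, as the labels name no shared animal, litter or day; their deviations correlated at -0.231, -0.000269 and -0.331 in the RFP, -0.459 in the Bcl6, 0.528 in the Prdm1 and 0.064 in the Tcf7 experiment. With the replicate block the members called were 0 in the RFP, 7 in the Bcl6, 9 in the Prdm1 and 10 in the Tcf7 comparison, and the genes called went from 3689 to 2992, from 40 to 78, from 750 to 2386 and from 413 to 977.

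Depth limits Defa20 to Defa22 in the Bcl6 experiment, where they rest on 0 to 28 reads a library. Depth also limits low members of the RFP experiment, where Defa21, the single member called, rests on 31, 5 and 11 reads in RFP+CD160+ libraries. Groups of 2 or 3 libraries limit all values.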

Other observations

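Genes of the Paneth cell that are neither defensins nor members stood apart in the same libraries in part. Mmp7, the protease that matures mouse alpha-defensins, stood at 11.4 and 32.8 scaled reads in Prdm1 WT libraries and at 23.3 and 213 in KO libraries, and at 85.7 and 89.4 against 143 and 119 in the Tcf7 experiment. Clps, which encodes colipase, stood at 4.14 and 17.3 against 7.42 and 104 in the Prdm1 experiment and at 23.8 and 24.3 against 54.7 and 49.2 in the Tcf7 experiment. Ang4, an antimicrobial ribonuclease, stood at 18.6 and 94.1 against 84.8 and 403 in the Prdm1 experiment, and at 5.16 FPKM in RFP-CD160- replicate 2 against 1.02 to 1.60 FPKM in the other 5 sorted libraries. All 3 genes had their highest Prdm1 value in KO replicate 2, the library in which the members stood apart. Reg3b and Reg3g, which fell in the Tcf7 KO, had their highest Prdm1 values in that library too, at 756 and 445 scaled reads against 59.5 to 201 and 38.0 to 127 in the other 3 libraries. Mmp7 and Clps were named after their values had been seen. Of 8 other Paneth cell genes tested in the Prdm1 experiment, 1 was called higher by limma and 0 lower. The share of all genes called higher was 4.29%. Nod2, of the same list, lay lower in the KO, at 147 ± 15.3 scaled reads against 201 ± 70.2 in WT (log2 difference -0.41).

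Genes listed for enteroendocrine cells, the hormone-secreting cells of the gut epithelium, and for tuft cells had reads in these libraries, and the source of those reads was not tested. They summed to 258 and 233 scaled reads in Tcf7 WT and to 546 and 569 in KO libraries, and Chgb, a granule protein gene of the hormone-secreting cells, rose from 82.0 ± 13.7 to 192 ± 8.98 scaled reads (SD, n = 2; log2 difference 1.23, SE 0.25, limma adjusted p = 0.0156), the single one of 3 tested to pass. In the Bcl6 experiment that list summed to 5.45 and 8.50 FPKM in WT and 8.61 and 5.52 FPKM in KO libraries. Its sums did not overlap in the other experiments either, at 132 and 178 scaled reads in Prdm1 WT and 259 and 269 in KO libraries. In the RFP experiment they ran from 0.931 to 1.50 FPKM in RFP+CD160+ and from 3.24 to 5.21 FPKM in RFP-CD160- libraries.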
